A study of Homo sapiens with 12 samples.

Results

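The genes described here encode the splicing machinery: SR proteins, hnRNP proteins, the proteins of the small nuclear ribonucleoproteins (snRNPs), the factors that load U2 snRNP on introns, and the PRPF factors. Members were chosen by symbol alone: SRSF followed by a digit, HNRNP, SF3A or SF3B followed by a digit, SNRP, U2AF, and PRPF followed by a digit. The rule found 70 of the 16384 gene symbols in the count table, and 68 of the 12645 genes that passed the filter on low counts. They divide into 12 SR proteins (11 tested), 21 hnRNP proteins (20 tested), 13 core factors of U2 (SF3A, SF3B and U2AF), 11 SNRP proteins and 13 PRPF factors. The members that did not pass were SRSF12, with 2 counts over all libraries, and HNRNPH2, with 12. The readthrough RPL36A-HNRNPH2 shares 4003 bases with HNRNPH2 on the same strand and is not listed separately in the counts. Its part in the low HNRNPH2 count was not tested. SNRPN was not analysed here.

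All libraries came from MDA-MB-231, an established line of triple-negative human breast cancer cells whose genotype the labels give as wild type. Poly(A) RNA was sequenced from 4 groups of 3 samples: vehicle (DMSO), CAR at 10 µmol/L, JQ1 at 25 µmol/L, and Combination, which received both agents at those doses. CAR is cardamonin, a chalcone from plants, as the series title names it, and JQ1 (written JQ-1 in the labels) is an inhibitor of BET bromodomain proteins, which read acetylated histones. The treatment time is not given in the sources used here, and every group is the same cell line, so a response here is that of a single line. Nothing says that the replicates came from separate cultures, so the p-values cover only the variation among these samples, and part or all of it may be technical.

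Splicing removes introns from pre-mRNA in a particle, the spliceosome, that is built anew on every intron. U1 snRNP recognises the 5′ splice site, and the U2AF pair recognises the end of the intron and helps to bring in U2 snRNP, whose SF3A and SF3B complexes hold the branch site. The U4/U6.U5 tri-snRNP then joins, and PRPF factors belong to it or drive the rearrangements that activate the particle. Each of these snRNPs except U6 is built on a ring of Sm proteins. SR proteins mostly bind exons and favour their inclusion, whereas hnRNP proteins coat the transcript and often favour skipping. Many SR and hnRNP genes also control their own RNA through exons that expose it to nonsense-mediated decay.

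The promoters of 61 of the 70 members were found in the RefSeq table (GRCh38.p14), each from 250 bases before the transcription start to 50 after it. The 4 stretches below are the 120 bases just before the start, and they are shown because they stand for the main patterns: HNRNPL fell most under JQ1, HNRNPD fell and has an E-box, SNRPG is a snRNP gene that fell, and PRPF6 rose. They were picked after the values were seen, from the stretches that no GENCODE exon covers. The start is that of RefSeq. In GENCODE v29 HNRNPD reaches to 82374503 and SNRPG to 70293771, so their stretches lie within the annotated gene. Capitals mark matches to an E-box, a CCAAT box or an ETS motif on either strand.
HNRNPL, chr19:38852348-38852467, minus strand: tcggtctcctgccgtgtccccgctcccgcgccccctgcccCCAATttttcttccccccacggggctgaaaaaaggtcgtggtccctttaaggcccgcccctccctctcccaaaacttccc
HNRNPD, chr4:82373992-82374111, minus strand: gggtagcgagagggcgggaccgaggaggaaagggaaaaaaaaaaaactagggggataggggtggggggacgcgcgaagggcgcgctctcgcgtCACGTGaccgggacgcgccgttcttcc
SNRPG, chr2:70293459-70293578, minus strand: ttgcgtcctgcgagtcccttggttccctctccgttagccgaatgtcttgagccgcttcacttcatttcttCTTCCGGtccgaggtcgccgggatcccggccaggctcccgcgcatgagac
PRPF6, chr20:63981012-63981131, plus strand: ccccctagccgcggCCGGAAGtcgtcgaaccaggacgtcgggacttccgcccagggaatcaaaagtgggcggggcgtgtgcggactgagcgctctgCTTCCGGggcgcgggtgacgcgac

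In HNRNPL the CCAAT box began 80 bases before the start, and in HNRNPD the E-box began 27 before it. The ETS letters lay at 50 bases before the start in SNRPG and at 106 and 24 in PRPF6, a gene that rose where SNRPG fell. Over the whole windows, both strands searched, CCGGAAG (the core of motifs bound by ETS factors) was found in 21 of 61 member promoters (34.4%) against 10.7% of all 27305 promoters. It was present in 7 of 10 SNRP and 7 of 11 U2 core promoters, but in 3 of 20 hnRNP and 2 of 11 SR promoters. The same letters stood in 12 of the 34 promoters of members that fell under JQ1 and in 7 of the 14 of members that rose. The E-box CACGTG, the site of MYC and its relatives, was found in 8 member promoters (13.1%, against 7.43% of all), 7 of them of hnRNP genes. CCAAT was found in 26 (42.6%, against 35.7%), 13 of them of hnRNP genes. Of the other motifs searched, AAGATGGC was found in 4 (6.56%, against 3.03%), GCGCATGC in 4 (6.56%, against 3.27%), TATAAA in 6 (9.84%, against 11.95%) and TGACNNNGC in 8 (13.1%, against 13.6%). A match is a run of letters and does not show that a factor binds there.

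Library totals ran from 17449715 to 19754456 counts, so 3 counts, the smallest amount taken as detectable, corresponded to 0.152 to 0.172 CPM (counts scaled to equal library totals). DMSO replicate 3 stood apart. Its residuals over genes ran against transcript length (Spearman rho -0.740, against 0.608 and 0.655 in the other DMSO libraries and -0.275 to 0.251 in the remaining 9), and its counts differed from those of its partners by a chi-square per degree of freedom of 10.6 and 12.6, against 1.46 to 2.31 for pairs within the other groups. Combination replicate 1 held 1429 counts of ALB, the albumin gene of liver, against 4 to 10 elsewhere, and its 9 liver markers summed to 124 CPM against 1.28 to 3.57. Results are given without these libraries where a call or a count depends on them. The 5 markers of the line (VIM, CD44, CAV1, AXL and SPARC) summed to 5210 to 5355 CPM in DMSO and 5133 to 5226 in CAR, but to 2521 to 2555 in JQ1 and 1919 to 2060 in Combination. Of 5 genes listed as absent or low in this line, ESR1 had at most 9 counts and PGR and CDH1 at most 13, whereas EPCAM and GATA3 were detected, EPCAM at a mean of 15.6 CPM in DMSO, 13.9 with CAR, 3.22 with JQ1 and 3.19 with both agents, and GATA3 at 7.72, 7.88, 2.44 and 1.39. Of the leukocyte markers in the count table, PTPRC had at most 1 count and LYZ at most 3, whereas CD14 had 2 to 14.

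Levels below are CPM after TMM scaling, in the order of replicates 1, 2 and 3. Differences are log2 fold changes ± SE from edgeR's quasi-likelihood test, fitted over all 12 libraries, and a gene was called where its Benjamini-Hochberg adjusted p was under 0.05. A further value given after a log2 fold change is its adjusted p unless named otherwise. Because each library holds a share of the RNA of a whole culture, fewer cells that express a gene and less of its RNA per cell cannot be told apart. The comparisons of CAR, JQ1 and Combination with DMSO share the DMSO libraries, so the likeness of their values is no separate evidence.

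With CAR, most snRNP and U2 genes rose by small amounts and most SR genes did not. Of the 68 tested members, 35 rose and 9 fell against DMSO, beside 27.3% of all tested genes higher and 30.1% lower (57.3% called). All 11 SNRP genes rose (median log2 fold change 0.24), as did 10 of the 13 U2 core genes (median 0.24) with none lower. Of 20 hnRNP genes 9 rose and 1 fell (median 0.06), of 13 PRPF genes 4 rose and 4 fell (median 0.06), and of 11 SR genes 1 rose and 4 fell (median -0.06). The CAR and DMSO libraries did not overlap in 35 members with CAR above and 11 with CAR below, beside 28.7% and 31.1% of all tested genes. The median over all tested genes was -0.02. Scaling by total counts shifts that median by a further -0.06 and gave 27 members higher and 16 lower, with 5 hnRNP genes higher and 4 lower. Over all genes it gave 2636 higher and 4738 lower in place of 3449 and 3801. The SNRP (9 higher, 0 lower) and U2 (8 higher, 0 lower) counts kept their direction.

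With JQ1, hnRNP and SNRP genes were mostly lower, U2 and SR genes moved both ways, and the family medians of hnRNP and SNRP genes lay further from 0 than with CAR. Larger changes were general: the median absolute log2 fold change over all tested genes was 0.604 with JQ1 and 0.224 with CAR. In all, 16 members rose and 39 fell against DMSO, beside 41.5% and 42.2% of all tested genes (83.7% called). Of 20 hnRNP genes 14 fell and 2 rose (median -0.71), and of 11 SNRP genes 10 fell and none rose (median -0.84). Among SR genes 6 fell and 3 rose, among U2 core genes 6 fell and 5 rose, and among PRPF genes 3 fell and 6 rose, with family medians of -0.16, -0.00 and 0.00. Libraries did not overlap in 16 members with JQ1 above DMSO and 39 below, beside 41.3% and 41.9% of all tested genes, and the all-gene median was -0.008. The summed share of all counts that hnRNP genes took went from 0.823% ± 0.0227 (SD, n = 3) in DMSO to 0.528% ± 0.00403 in JQ1, and that of SNRP genes from 0.132% ± 0.0122 to 0.0797% ± 0.00177. The markers of the line fell in the same libraries, as given above, and their part in these differences was not tested.

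With both agents, hnRNP and SNRP genes were again mostly lower than in DMSO and PRPF genes mostly higher. Against DMSO 22 members rose and 37 fell, beside 42.6% and 42.8% of all tested genes (85.4% called). The libraries did not overlap in 19 members above DMSO and 37 below, beside 42.2% and 42.6%. By family, 15 hnRNP genes fell and 2 rose (median -0.46), 9 SNRP genes fell and 1 rose (median -0.57), 10 PRPF genes rose and 3 fell (median 0.21), 6 U2 core genes rose and 5 fell (median 0.18), and 3 SR genes rose and 5 fell (median -0.09). Scaling by total counts moves the all-gene median by -0.21 (by -0.12 for JQ1 against DMSO and by -0.14 for Combination against CAR). It gave 13 members higher and 45 lower, PRPF genes at 4 higher and 4 lower, and all genes at 4216 higher and 6501 lower in place of 5386 and 5415. The excess of raised PRPF genes was absent from that scaling.

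Adding CAR to JQ1 gave mostly small rises, and adding JQ1 to CAR gave mostly falls of hnRNP and SNRP genes. In Combination against JQ1, 32 members rose and 7 fell, beside 26.0% and 25.9% of all tested genes (51.9% called). The libraries did not overlap in 35 members above JQ1 and 9 below, beside 31.5% and 30.8%. The rises were spread over hnRNP (10 higher, 3 lower), PRPF (7 and 0), U2 core (6 and 1), SR (5 and 3) and SNRP genes (4 and 0). With total-count scaling the members stood at 18 higher and 17 lower, hnRNP genes at 6 and 9 and SR genes at 1 and 5, and all genes at 2229 higher and 4550 lower in place of 3292 and 3275. In Combination against CAR, 15 members rose and 38 fell, beside 42.4% and 43.0% of all tested genes (85.4% called), with 15 of 20 hnRNP and 10 of 11 SNRP genes lower and none of the SNRP genes higher. The libraries did not overlap in 15 members above CAR and 44 below, beside 43.5% and 44.0%. JQ1 against DMSO and Combination against CAR share no library: 35 members fell in both, 89.7% of the 39 and 92.1% of the 38, and 13 rose in both, 81.3% of the 16 and 86.7% of the 15. CAR against DMSO and Combination against JQ1 share no library either. Of the 35 members that rose in the first and the 32 that rose in the other, 18 rose in both (51.4% and 56.3% of each list). Of the 9 and 7 that fell, 2 fell in both (22.2% and 28.6%), and 5 of the 9 that fell with CAR alone rose when CAR was added to JQ1: SRSF4, SRSF11, HNRNPUL2, PRPF38B and PRPF39. The matching overlaps over all tested genes are not given here for either pair of comparisons. These shares therefore cannot be read as particular to the members. Of all tested genes, 83.7% were called in JQ1 against DMSO and 85.4% in Combination against CAR.

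**Figure D1:**
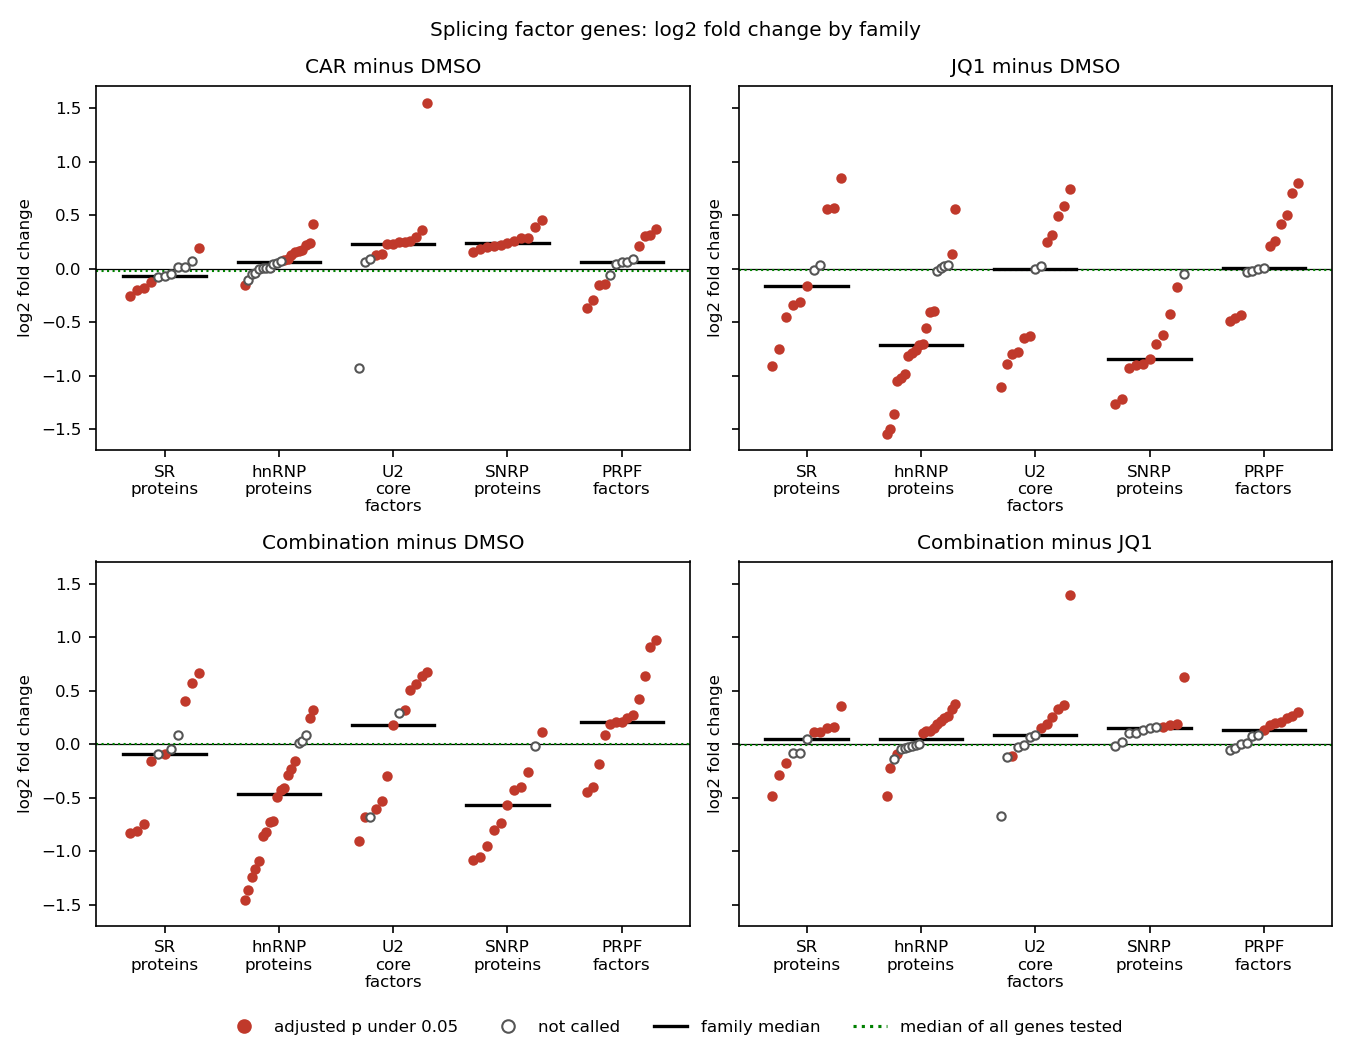
Log2 fold change of each tested member by family, for CAR, JQ1 and Combination against DMSO and Combination against JQ1. Filled points passed an adjusted p of 0.05 and open points did not, the bar is the family median and the dotted line the median of all tested genes; all 11 SNRP genes lie above 0 with CAR, and 10 of them fell with JQ1.

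SR proteins bind exonic enhancers through RNA recognition motifs and reach the spliceosome through serine and arginine rich tails. SRSF1 (chromosome 17, 58003360 to 58007346 on the minus strand of GRCh38, GENCODE v29), the founding member of the family and a proto-oncogene in breast, stood at 325, 332 and 329 CPM in the DMSO libraries, 326, 330 and 343 with CAR, 195, 204 and 190 with JQ1 and 176, 185 and 196 with both agents. The DMSO and CAR libraries overlapped, and every library with JQ1 lay far below them. SRSF1 fell by 0.74 ± 0.04 on the log2 scale with JQ1 (adjusted p = 1.82e-13) and by 0.83 ± 0.04 in Combination (2.76e-14), whereas CAR gave 0.02 (0.713). A second annotated transcript unit, AC015813.2, shares 3887 bases with the gene on the same strand and is not listed separately in the counts.

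SRSF3, the smallest of the classical SR proteins and an exporter of mRNA (chromosome 6, 36594353 to 36605600, plus strand), stood at 236, 230 and 261 CPM in the DMSO libraries, 246, 260 and 257 with CAR, 130, 127 and 130 with JQ1 and 150, 140 and 142 with both agents. It fell by 0.91 ± 0.05 with JQ1 (2.9e-14), the largest fall of the family, and by 0.75 ± 0.05 in Combination (8.01e-13). Its level in Combination lay above that in JQ1 with no overlap, a rise of 0.16 (0.00558). With CAR alone it differed by 0.07 (0.172), and by 0.13 (0.000486) without DMSO replicate 3.

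SRSF2, which pairs with SRSF1 in the recognition of many enhancers, stood at 268, 262 and 303 CPM in the DMSO libraries, 267, 261 and 263 with CAR, 221, 227 and 226 with JQ1 and 246, 253 and 249 with both agents. It fell by 0.31 ± 0.04 with JQ1 (1.22e-06), and by 0.16 ± 0.04 in Combination (0.0024). MFSD11 overlaps it on the opposite strand. SRSF7, also an export adaptor, was nearly level, at 154, 156 and 170 CPM in the DMSO libraries, 161, 158 and 167 with CAR, 141, 146 and 142 with JQ1 and 157, 158 and 151 with both agents. Its fall by 0.16 ± 0.04 with JQ1 (0.00133) was -0.01 (0.811) after a correction for transcript length, which itself shifts the median of all genes by 0.11 in that comparison.

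SRSF5, SRSF6 and SRSF11 rose where SRSF1 and SRSF3 fell. SRSF5 (chromosome 14, 69726900 to 69772005, plus strand) stood at 143, 136 and 162 CPM in the DMSO libraries, 143, 141 and 138 with CAR, 262, 266 and 268 with JQ1 and 227, 211 and 217 with both agents. It rose by 0.85 ± 0.05 with JQ1 (3.24e-13), the largest rise of the family, and its Combination libraries lay below those of JQ1. SRSF6 stood at 278, 267 and 291 CPM in the DMSO libraries, 250, 243 and 244 with CAR, 409, 413 and 421 with JQ1 and 370, 365 and 368 with both agents. CAR lowered it by 0.18 ± 0.04 (0.000221), JQ1 raised it by 0.57 ± 0.04, and it was again lower in Combination than in JQ1, so both steps with CAR went down.

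SRSF11, a partner of U2AF in the recognition of introns, behaved otherwise, at 267, 252 and 241 CPM in the DMSO libraries, 223, 229 and 209 with CAR, 362, 389 and 368 with JQ1 and 404, 411 and 395 with both agents. It fell by 0.20 ± 0.04 with CAR (0.000531) and was highest with both agents, 0.67 ± 0.04 above DMSO (2.85e-12). SRSF4 stood at 83.5, 81.9 and 93.5 CPM in the DMSO libraries, 78.5, 81.1 and 77.8 with CAR, 62.2, 63.9 and 63.5 with JQ1 and 84.2, 78.1 and 81 with both agents. Its fall with JQ1 (0.45) was not seen in Combination, where it differed from DMSO by -0.09 (0.0945) and rose from JQ1 by 0.36 ± 0.05 (4.89e-06); with total-count scaling the difference from DMSO was called, at -0.30 (1.34e-05). Its fall with CAR, by 0.13 ± 0.05 (0.0331), was not called without DMSO replicate 3 (-0.06, 0.200).

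SRSF8 fell with each agent and most with both. It stood at 47.6, 48.3 and 50.1 CPM in the DMSO libraries, 41, 40.2 and 41.4 with CAR, 38.3, 39.5 and 38 with JQ1 and 28, 27.1 and 27.9 with both agents, with no overlap between any pair of groups. The falls were 0.25 ± 0.05 with CAR (0.000107), 0.33 with JQ1 and 0.81 ± 0.05 with both (1.17e-12). SRSF9 was the SR gene that rose with CAR, at 162, 163 and 184 CPM in DMSO and 190, 198 and 194 in CAR (0.20 ± 0.04, 0.000846), and it did not pass the test with JQ1 (172, 176 and 174 CPM, 0.04). SRSF10, a repressor when dephosphorylated, ranged only from 199 to 217 CPM over all 12 libraries.

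**Figure D2:**
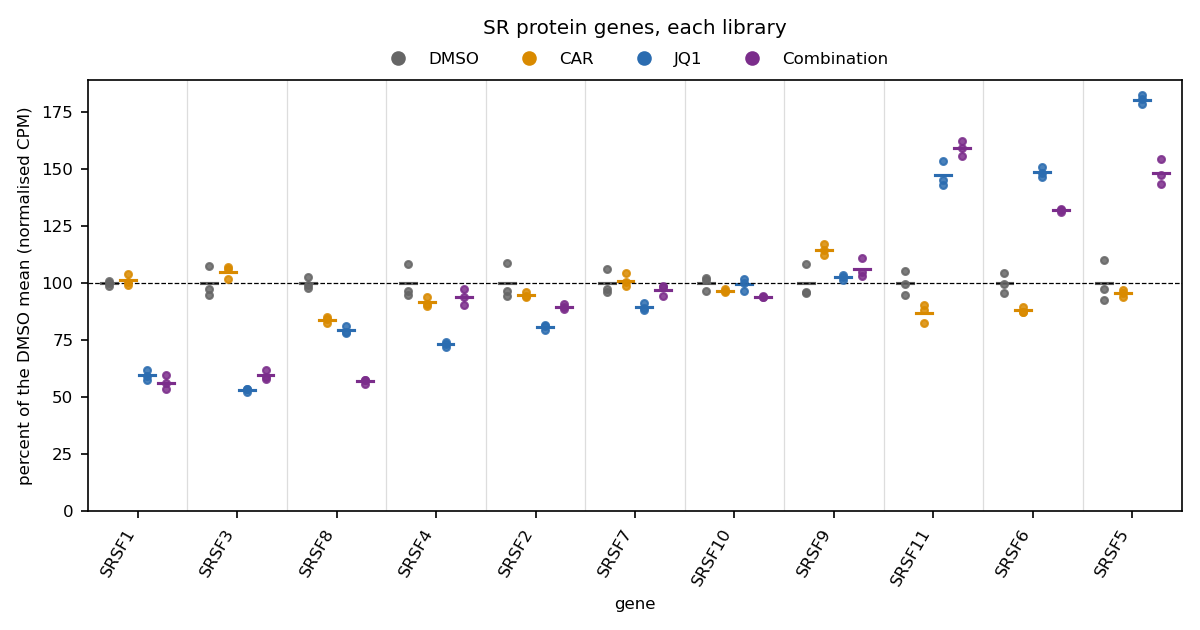
Normalised CPM of each tested SR gene in each library, as percent of the DMSO mean, with bars at the group means. The JQ1 and Combination libraries lie between 53.5% and 62.2% for SRSF1 and between 143% and 183% for SRSF5.

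The hnRNP proteins package nascent transcripts, and A1, I, L and relatives act as splicing repressors at many exons. HNRNPL (chromosome 19, 38836388 to 38852347, minus strand), which binds CA-rich RNA, had the largest fall of any member with JQ1. It stood at 243, 238 and 252 CPM in the DMSO libraries, 286, 285 and 286 with CAR, 81.4, 86.3 and 84.9 with JQ1 and 108, 112 and 107 with both agents, 4 groups with no overlap. The log2 fold changes were 0.22 ± 0.04 with CAR (2.08e-05), -1.54 ± 0.04 with JQ1 (2.39e-19) and 0.37 ± 0.04 in Combination against JQ1 (1.15e-07). The annotated unit AC008982.1 shares part of the gene on the same strand. Its paralog HNRNPLL, a regulator of CD45 splicing in lymphocytes, went the other way, at 44.8, 44.3 and 46.9 CPM in the DMSO libraries, 48, 43.5 and 45.2 with CAR, 68, 66.2 and 66.5 with JQ1 and 49.3, 46.2 and 48.6 with both agents. HNRNPLL rose by 0.56 ± 0.05 with JQ1 (4.71e-10) and fell by 0.48 ± 0.05 when CAR was added (5.55e-08), and its Combination and DMSO levels differed by 0.08 (0.129, 95% interval -0.02 to 0.18).

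HNRNPA1 (chromosome 12, 54280193 to 54287088, plus strand), the best studied splicing repressor of the family, stood at 761, 748 and 811 CPM in the DMSO libraries, 856, 886 and 882 with CAR, 312, 302 and 291 with JQ1 and 280, 278 and 290 with both agents. CAR raised it by 0.18 ± 0.04 (0.000379), and JQ1 lowered it by 1.36 ± 0.04 (1.82e-18). In Combination it was 1.45 ± 0.04 below DMSO (log2 fold change -1.45, 5.21e-19). Its difference between Combination and JQ1 was -0.09 ± 0.04 (0.0477), and without any 1 of JQ1 replicates 1 and 2 or Combination replicates 1 and 2 its adjusted p lay between 0.110 and 0.206. HNRNPA1 is near-identical to processed copies such as HNRNPA1L2 (11.8 to 13.9 CPM in all libraries), and how the counting treated reads that fit both is not given in the sources used here.

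The other A and B proteins fell alongside: 5 of 6 tested fell with JQ1 and all 6 in Combination, the sixth being HNRNPA1L2. HNRNPA2B1, which carries RNA in exosomes and along axons, had JQ1 and Combination log2 fold changes of -0.78 and -0.82, HNRNPA3 of -0.70 and -0.73 and HNRNPA0 of -0.41 and -0.40. HNRNPAB, which binds AU-rich RNA, stood at 178, 172 and 201 CPM in the DMSO libraries, 244, 250 and 244 with CAR, 111, 106 and 109 with JQ1 and 143, 133 and 134 with both agents. Its rise of 0.42 ± 0.05 with CAR (1.56e-07) was the largest in the family. PHYKPL overlaps it on the opposite strand.

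HNRNPM, which acts on exons linked to the mesenchymal state in breast cells (chromosome 19, 8444767 to 8489114, plus strand), stood at 222, 221 and 243 CPM in the DMSO libraries, 244, 265 and 257 with CAR, 80.7, 83.8 and 79 with JQ1 and 91.8, 84 and 90.2 with both agents. Its fall with JQ1 was 1.49 ± 0.05 (1.19e-17), close to that of HNRNPL. HNRNPK, a poly(C) binder that also acts in transcription, moved less, at 662, 679 and 664 CPM in the DMSO libraries, 772, 798 and 793 with CAR, 527, 509 and 494 with JQ1 and 579, 573 and 554 with both agents. It rose by 0.24 ± 0.03 with CAR (5.55e-06) and fell by 0.39 ± 0.03 with JQ1 (7.52e-10) and by 0.23 ± 0.03 with both (2.12e-06). HNRNPR fell with JQ1 (-0.82), and HNRNPC, which guards against exons from Alu elements, did not pass the test with JQ1 (0.02, 95% interval -0.04 to 0.09).

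HNRNPD (AUF1, an RNA decay factor) and its relative HNRNPDL had log2 fold changes of -1.04 and -0.55 with JQ1, and both were called. HNRNPF and HNRNPH3, binders of G-rich runs, fell by 0.71 and 0.98, whereas HNRNPH1 of the same type rose. HNRNPH1 stood at 613, 556 and 567 CPM in the DMSO libraries, 566, 572 and 553 with CAR, 632, 640 and 637 with JQ1 and 738, 693 and 743 with both agents, and it rose by 0.14 ± 0.04 with JQ1 (0.00296) and by 0.32 ± 0.04 with both (1.01e-07). With total-count scaling the JQ1 value of HNRNPH1 was 0.02 (0.695). Among the U types, HNRNPUL1 fell with JQ1 (-1.02) and in Combination (-1.24), HNRNPU differed from DMSO by 0.04 with JQ1, and HNRNPUL2 fell with CAR (-0.15 ± 0.04) and rose in Combination (0.25). HNRNPUL2 stood at 294, 301 and 314 CPM in the DMSO libraries, 269, 272 and 280 with CAR, 299, 307 and 305 with JQ1 and 377, 347 and 357 with both agents. The readthrough HNRNPUL2-BSCL2 shares 14755 bases with it on the same strand, and TGFB1 overlaps HNRNPUL1 on the opposite strand.

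**Figure D3:**
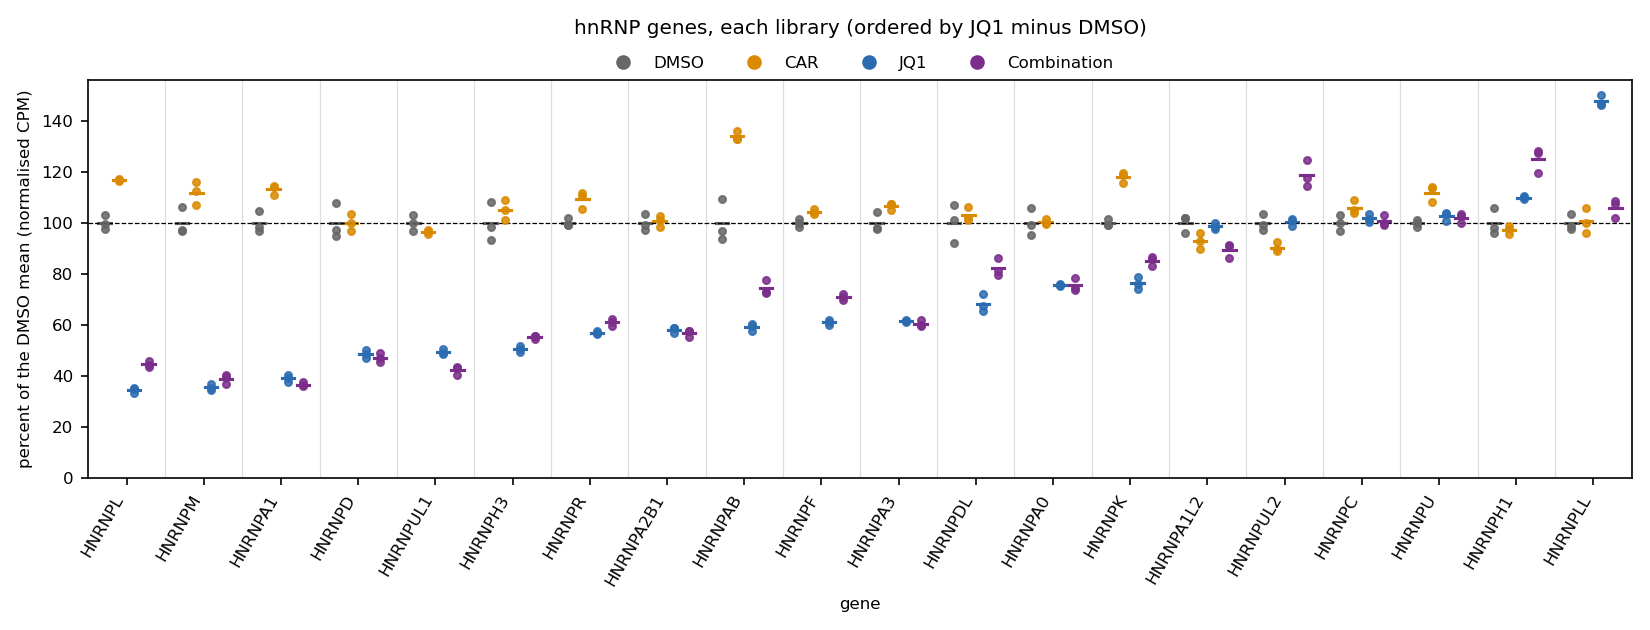
Normalised CPM of each tested hnRNP gene in each library, as percent of the DMSO mean, ordered by the JQ1 effect, with bars at the group means. In JQ1, HNRNPL lies between 33.3% and 35.3%, HNRNPM between 34.6% and 36.7% and HNRNPLL between 146% and 150.1%.

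SNRP genes encode the Sm ring (SNRPB, D1, D2, D3, E, F and G) and the proteins that mark U1 (SNRPA, SNRPC) and U2 (SNRPA1, SNRPB2). SNRPB, whose own alternative exon answers to the level of Sm proteins (chromosome 20, 2461634 to 2470853, minus strand), stood at 229, 222 and 264 CPM in the DMSO libraries, 288, 286 and 282 with CAR, 161, 151 and 155 with JQ1 and 171, 175 and 187 with both agents. It rose by 0.26 ± 0.05 with CAR (0.000225), fell by 0.61 ± 0.05 with JQ1 (8.28e-10) and was 0.19 ± 0.05 higher in Combination than in JQ1 (0.00546). AL049650.1 overlaps it on the same strand.

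SNRPD1, whose protein pairs with SNRPD2 in the ring, had the deepest fall of the family. It stood at 86.4, 83.9 and 96 CPM in the DMSO libraries, 99.5, 110 and 105 with CAR, 38, 37.6 and 35.8 with JQ1 and 40.9, 41.7 and 43.5 with both agents, and its JQ1 log2 fold change was -1.26 ± 0.06 (4.49e-15). SNRPF (-1.21), SNRPE (-0.90) and SNRPG (-0.70) fell with it, as did SNRPD3 (-0.42), which GGT1 overlaps on the same strand. SNRPD2 did not: it stood at 162, 166 and 195 CPM in the DMSO libraries, 203, 204 and 200 with CAR, 173, 164 and 170 with JQ1 and 187, 189 and 189 with both agents, and its JQ1 difference was -0.05 (0.401). The RNAs of the ring genes were thus at unequal shares of their DMSO levels. With CAR all 7 ring genes rose, from 0.16 ± 0.04 for SNRPD3 (0.0028) to 0.39 ± 0.06 for SNRPE (7.52e-06).

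Among the U1 and U2 proteins, SNRPA1 answered most to CAR. It stood at 55.7, 54.8 and 63.1 CPM in the DMSO libraries, 77.6, 80.5 and 79.9 with CAR, 29.9, 33.8 and 30.2 with JQ1 and 50.7, 48.7 and 46.2 with both agents. CAR raised it by 0.45 ± 0.06 over DMSO (5.77e-07) and by 0.63 ± 0.06 over JQ1 (4.3e-08), the largest rises of an SNRP gene in both comparisons. Its fall in Combination (0.25 ± 0.06, 0.000426) was smaller than that with JQ1 alone (-0.89). SNRPA (-0.93 with JQ1, -0.95 in Combination) and SNRPC (-0.84 and -0.73) fell to like levels in both. SNRPB2 stood at 51.8, 53 and 63.1 CPM in DMSO and 55, 45.5 and 49 in JQ1, groups that overlap, and its call (-0.17 ± 0.07, 0.0422) was lost without DMSO replicate 3 (-0.07, 0.268), JQ1 replicate 2 (-0.10, 0.229) or JQ1 replicate 3 (-0.16, 0.104).

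The genes of the SF3A and SF3B complexes, which clamp the branch site in U2 snRNP, did not move as units under JQ1. Of 6 SF3B genes 4 rose and 2 fell, and of 3 SF3A genes 2 fell and none rose. SF3B1 (chromosome 2, 197389784 to 197435091, minus strand), the scaffold of SF3B and the target of splicing inhibitors, stood at 502, 492 and 471 CPM in the DMSO libraries, 510, 506 and 516 with CAR, 819, 836 and 798 with JQ1 and 755, 767 and 752 with both agents. It rose by 0.74 ± 0.03 with JQ1 (7.6e-15) and by 0.63 ± 0.03 with both (1.13e-13), and differed by 0.07 ± 0.03 with CAR (0.111). SF3B2 rose with it, from 406, 401 and 439 CPM in DMSO to 448, 472 and 453 with CAR, 613, 630 and 632 with JQ1 and 679, 663 and 655 with both agents. The small subunits SF3B5 and SF3B6 also rose with JQ1 (0.25 and 0.32), whereas SF3B3 (-0.65) and SF3B4 (-0.62) fell.

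In SF3A, SF3A2 stood at 48, 44.9 and 47.3 CPM in the DMSO libraries, 56.8, 56.6 and 59.2 with CAR, 24.6, 26.4 and 24.8 with JQ1 and 30.2, 33.5 and 33.8 with both agents. It fell by 0.89 ± 0.06 with JQ1 (2.52e-12) and was 0.36 ± 0.06 higher in Combination than in JQ1 (3.37e-05). PLEKHJ1 overlaps it on the opposite strand. SF3A3 fell by 0.79 with JQ1, and SF3A1 differed by 0.02. With CAR all 3 SF3A genes rose, from 0.26 for SF3A1 to 0.36 ± 0.04 for SF3A3 (7.05e-08), and 5 of 6 SF3B genes rose, from 0.13 ± 0.05 for SF3B5 (0.0392) to 0.26 for SF3B4. The SF3B5 call did not hold without any 1 of DMSO replicates 1 or 2 or of the CAR replicates, with adjusted p values from 0.0587 to 0.244.

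U2AF2, the large subunit that reads the polypyrimidine tract, rose in every treatment, from 272, 262 and 280 CPM in DMSO to 328, 313 and 317 with CAR, 381, 380 and 388 with JQ1 and 382, 406 and 413 with both agents. U2AF1, the small subunit that reads the AG at the intron's end, cannot be read as simply. The table lists it (chromosome 21, 43092956 to 43107587, minus strand) and a near-identical copy, U2AF1L5 (chromosome 21, 6484623 to 6499261, minus strand), and reads that fit both could be split between them. U2AF1 stood at 10.2, 4.04 and 10.9 CPM in the DMSO libraries, 5.74, 3.7 and 3.85 with CAR, 6.78, 7.02 and 11.7 with JQ1 and 7.92, 4.07 and 3.92 with both agents. U2AF1L5 stood at 4.24, 3.61 and 4.11 CPM in the DMSO libraries, 10.1, 13.9 and 11.2 with CAR, 1.49, 2.38 and 1.69 with JQ1 and 2.78, 3.66 and 8.2 with both agents.

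Neither U2AF1 difference from DMSO passed the test (-0.93 ± 0.44 with CAR, 0.106, and -0.68 ± 0.44 in Combination, 0.182), although both did without DMSO replicate 2 (-1.25, 0.0145, and -0.99, 0.0243). U2AF1L5 was called higher with CAR (1.55 ± 0.30, 0.00122). Added together, a sum chosen after the values were seen, the copies stood at 14.5, 7.65 and 15 CPM in the DMSO libraries, 15.9, 17.6 and 15.1 with CAR, 8.27, 9.39 and 13.4 with JQ1 and 10.7, 7.73 and 12.1 with both agents. The DMSO, JQ1 and Combination sums overlap one another, and CAR lies above all of them by a narrow margin. U2AF1L4, a paralog of the small subunit, was low (4.93 to 5.53 CPM in DMSO) and fell with JQ1 (-0.78 ± 0.14, 2.56e-05) and in Combination (-0.90 ± 0.14, 5.58e-06).

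**Figure D4:**
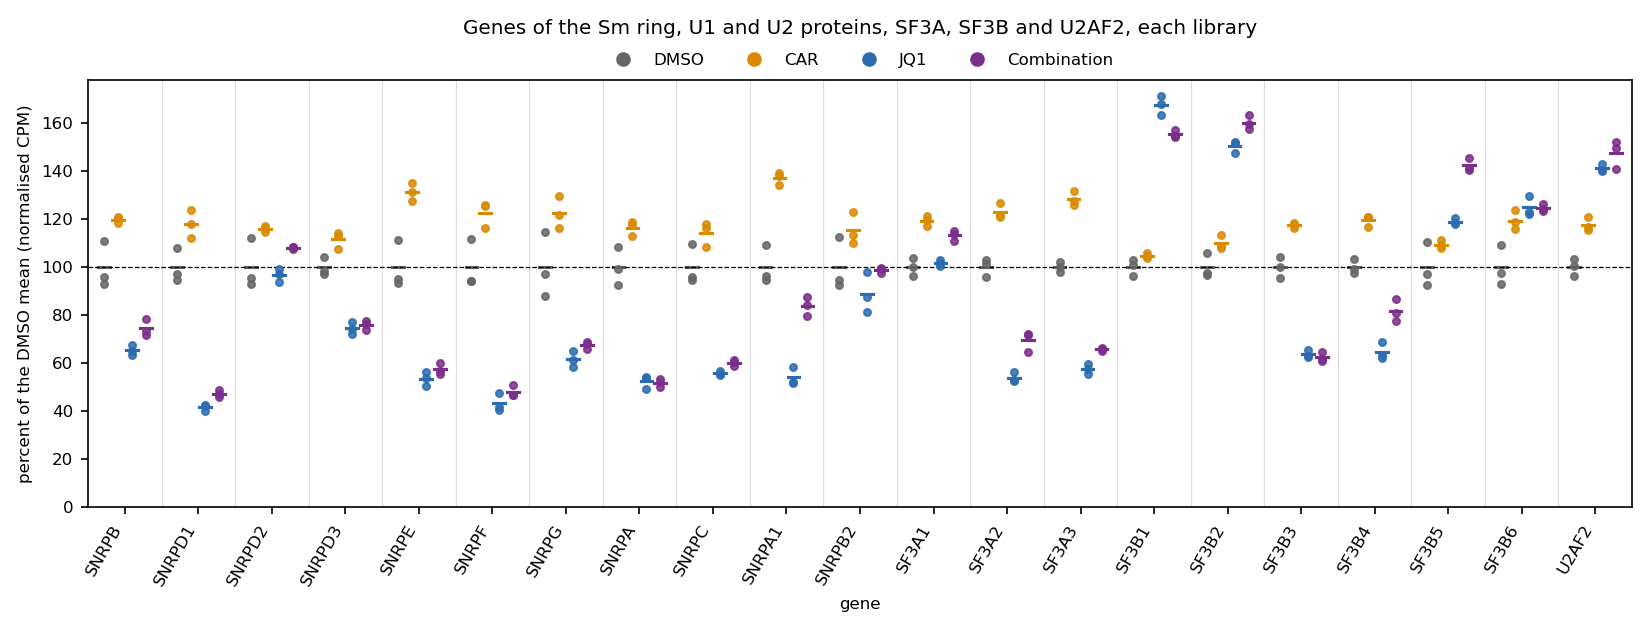
Normalised CPM of the Sm ring, U1 and U2 proteins, SF3A, SF3B and U2AF2 in each library, as percent of the DMSO mean, with bars at the group means. SNRPD1 lies between 40.3% and 42.8% in JQ1 while SF3B1 lies between 163% and 171%.

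PRPF factors take part in the tri-snRNP or in the activation and release of the spliceosome. PRPF8, the catalytic centre's scaffold in U5 (chromosome 17, 1650629 to 1684882, minus strand), stood at 1356, 1411 and 1038 CPM in the DMSO libraries, 1320, 1302 and 1293 with CAR, 1690, 1710 and 1689 with JQ1 and 1680, 1739 and 1692 with both agents. The low DMSO value is that of replicate 3, the library that ran against transcript length. PRPF8 rose with JQ1 by 0.42 ± 0.09 (0.000843), or by 0.30 without that library, and in Combination by 0.43 ± 0.09 (0.000736). With CAR it differed by 0.04 ± 0.09 (0.714), and by -0.08 (0.00291) without that library, a reversal that was called.

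PRPF6, the bridge between U5 and U4/U6 (chromosome 20, 63981135 to 64033100, plus strand), stood at 126, 121 and 130 CPM in the DMSO libraries, 130, 136 and 129 with CAR, 204, 201 and 209 with JQ1 and 240, 233 and 235 with both agents. It rose by 0.71 ± 0.04 with JQ1 (1.68e-13) and by 0.91 ± 0.04 in Combination (1.59e-15). PRPF4, of U4/U6, answered to CAR instead, at 102, 102 and 100 CPM in the DMSO libraries, 131, 129 and 135 with CAR, 99.7, 100 and 97.9 with JQ1 and 123, 120 and 125 with both agents. Its rises were 0.38 ± 0.04 with CAR (2.66e-08) and 0.31 ± 0.04 in Combination over JQ1 (7.84e-07), and with JQ1 alone all 3 libraries lay just under those of DMSO, a difference that was not called. All 5 PRPF genes of the tri-snRNP (PRPF3, PRPF4, PRPF6, PRPF8 and PRPF31) were higher in Combination than in DMSO, 2 of 5 with CAR and 2 of 5 with JQ1. With total-count scaling the Combination values of PRPF31 (0.04, 0.482) and PRPF3 (0.00198, 0.965) were not called.

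PRPF39, a U1 partner at weak 5′ splice sites (chromosome 14, 45084099 to 45116282, plus strand), stood at 36.8, 38.3 and 37.1 CPM in the DMSO libraries, 34.5, 33.6 and 33.8 with CAR, 63.3, 65.6 and 66.1 with JQ1 and 76.3, 76 and 68.6 with both agents. It rose by 0.80 ± 0.05 with JQ1 (1.91e-12) and by 0.98 ± 0.05 with both (4.12e-14), the largest rise of any PRPF gene in each, and fell by 0.14 ± 0.05 with CAR (0.0332). PRPF38A and PRPF38B, both factors of spliceosome activation, moved in opposite directions. PRPF38A stood at 66.3, 67.1 and 64 CPM in the DMSO libraries, 82.3, 81.1 and 82.8 with CAR, 49.6, 47.8 and 46.3 with JQ1 and 49.8, 49.4 and 46.2 with both agents. PRPF38B stood at 61.4, 58.2 and 60.9 CPM in the DMSO libraries, 55.5, 50.8 and 55.7 with CAR, 78.6, 91.3 and 85.1 with JQ1 and 98, 90.6 and 91.5 with both agents. TUT4 overlaps PRPF38A on the opposite strand.

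PRPF38A thus rose with CAR (0.32 ± 0.04, 2.85e-06) and fell with JQ1 (-0.46 ± 0.05, 7.29e-09), and PRPF38B fell with CAR (-0.16 ± 0.06, 0.0233) and rose with JQ1 (0.50). PRPF19, the ubiquitin ligase of the activating complex, followed PRPF38A, up with CAR (0.31 ± 0.04, 5.99e-07) and down with JQ1 (-0.43). PRPF4B, a kinase of PRPF6 and PRPF31, followed PRPF38B, at 166, 162 and 146 CPM in the DMSO libraries, 129, 127 and 131 with CAR, 191, 192 and 184 with JQ1 and 187, 181 and 179 with both agents. PRPF40B, a U1 partner present at 8.66 to 11.1 CPM in DMSO, fell with CAR (-0.36 ± 0.11, 0.00846) and with JQ1 (-0.48 ± 0.12, 6e-04). Its CAR call was lost without DMSO replicate 1 (-0.27, 0.0683), and FAM186B and FMNL3 overlap it on the opposite strand.

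Whether CAR acted alike with and without JQ1 was tested as an interaction, the CAR effect in the presence of JQ1 minus that in its absence. It was called higher for 13 members and lower for 14, beside 20.1% and 18.2% of all tested genes (38.3% called). None of the U2 core genes was higher (5 lower), none of the SNRP genes (2 lower), and 5 of 13 PRPF genes were higher with 1 lower. The 3 largest values were those of SRSF4 (0.49 ± 0.07, 1.73e-05), PRPF40B (0.45 ± 0.17, 0.0377) and HNRNPUL2 (0.39 ± 0.05, 9.36e-06), and the 3 smallest those of HNRNPLL (-0.49 ± 0.07, 1.51e-05), PRPF38A (-0.30 ± 0.07, 0.000996) and SNRPE (-0.29 ± 0.09, 0.0155). HNRNPUL2 and SRSF4 were lower with CAR than with DMSO and higher with Combination than with JQ1. SNRPE stood at 55.2, 56.3 and 65.9 CPM in the DMSO libraries, 75.5, 77.7 and 79.9 with CAR, 31.7, 33.4 and 29.8 with JQ1 and 35.6, 32.9 and 33.5 with both agents, and its interaction was not called without JQ1 replicate 2 (-0.25, 0.0573). The lower count rested on DMSO replicate 3: without it 15 members were higher and 25 lower, 8 of the 11 SNRP genes among the lower. The all-gene shares without that library are not given here, so these counts cannot be read as particular to the members.

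**Figure D5:**
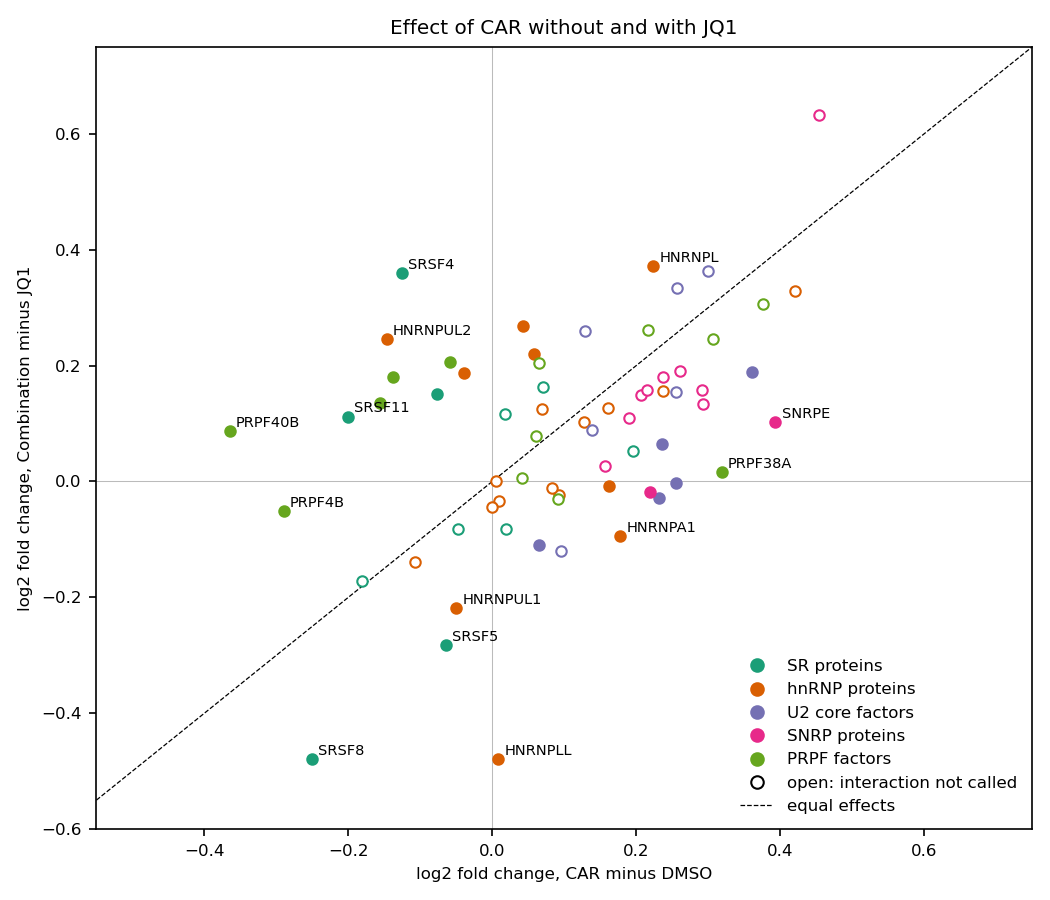
Effect of CAR without JQ1 (CAR minus DMSO, x axis) against its effect with JQ1 (Combination minus JQ1, y axis), log2 fold change, 1 point per tested member; filled points had a called interaction and the dashed line marks equal effects. SRSF4 lies at -0.13 and 0.36 and HNRNPLL at 0.01 and -0.48, while U2AF1 and U2AF1L5 fall outside the axes.

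Levels can be compared between genes only per length, taken here from the longest principal transcript or, where none is tagged, the longest transcript. The measure was mean DMSO CPM per kilobase. On that scale HNRNPC was highest at 377, followed by HNRNPA2B1 (290), HNRNPK (227), SNRPC (219), SRSF1 (217), SNRPB (206), SNRPD2 (194), HNRNPA1 (188) and PRPF8 (170). The order depends on the transcript chosen for each gene, for example 4121 bases for HNRNPA1 and 1714 for HNRNPC. The lowest of the tested members were PRPF40B (2.96), U2AF1L5 (4.45), U2AF1L4 (5.82) and U2AF1 (8.72). How reads that fit both U2AF1 and U2AF1L5 were counted is not known, so the low ranks of this pair are uncertain. Most of these abundant genes fell with JQ1 (HNRNPA2B1, HNRNPK, SNRPC, SRSF1, SNRPB and HNRNPA1). PRPF8 rose, and HNRNPC and SNRPD2 did not pass the test there. Together the 70 members took 1.68% of all counts in DMSO, 1.71% in CAR, 1.37% in JQ1 and 1.34% in Combination, on the scale of raw counts.

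The members were read beside 8 lists of other splicing genes, against the same shares of all tested genes: 27.3% higher and 30.1% lower with CAR, 41.5% and 42.2% with JQ1, and 26.0% and 25.9% in Combination against JQ1. Of 35 other regulators of alternative splicing, 8 rose and 22 fell with JQ1 (median -0.35), and 8 rose and 13 fell in Combination against JQ1. PTBP1, the polypyrimidine tract repressor also called hnRNP I, had group means of 406 CPM in DMSO, 495 in CAR, 167 in JQ1 and 228 in Combination, with called log2 fold changes of 0.29 for CAR, -1.28 for JQ1 and 0.45 for Combination against JQ1. RBMX, or hnRNP G, had means of 212, 219, 76.3 and 44.2 CPM, and fell with JQ1 (-1.48 ± 0.05, 1.03e-17) and again when CAR was added (-0.79 ± 0.05, 6.27e-11). TIA1, which promotes weak 5′ splice sites, fell with CAR (-0.56 ± 0.05, 1.74e-08) and rose with JQ1 (1.04 ± 0.05, 1.46e-14), and RBM5 (1.06) and CIRBP (0.90) also rose with JQ1.

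Among 22 tested SR-related proteins and SR kinases, 11 rose and 7 fell with JQ1, beside 41.5% and 42.2% of all tested genes. The kinases CLK1 (0.79 ± 0.05, 5.23e-13) and CLK4 (0.87 ± 0.08, 1.06e-09), which phosphorylate SR proteins in the nucleus, rose with JQ1, and TRA2B, an SR-like activator, fell (-0.92 ± 0.04, 5.82e-16). CLK2 had means of 40.4 CPM in DMSO, 30.9 in CAR, 50.9 in JQ1 and 67.3 in Combination, so it fell with CAR alone and rose when CAR joined JQ1 (interaction 0.79 ± 0.08, 2.09e-07).

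The snRNP assembly list (the SMN complex and the methylosome, which methylate Sm proteins and load them on snRNA) had 10 of 17 genes higher and 0 lower with CAR (median 0.23), and 1 higher and 10 lower with JQ1 (median -0.33), beside 27.3% and 30.1% of all tested genes with CAR and 41.5% and 42.2% with JQ1. WDR77, the methylosome subunit that binds PRMT5, had means of 58.9 CPM in DMSO, 93.2 in CAR, 29.3 in JQ1 and 33 in Combination, and GEMIN5, which reads snRNA, had 59.1, 101, 60.7 and 66.1. With CAR WDR77 rose by 0.66 ± 0.05 (1.76e-09) and GEMIN5 by 0.77 ± 0.05 (7.73e-11), and the interaction was negative for both (-0.49 and -0.65).

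Of the remaining tri-snRNP and LSm genes, 13 of 19 rose and 1 fell with CAR, and 4 rose and 12 fell with JQ1. LSM5, of the ring on U6, fell by 1.93 ± 0.10 with JQ1 (3.83e-13), and SNRNP200, the helicase that unwinds U4 from U6, rose by 0.54 ± 0.05 (8.11e-09). Of 18 other U1, U2 and early factors 5 rose and 10 fell with JQ1, and of 31 genes of the Prp19 and catalytic complexes 14 rose and 13 fell, the latter counts near the all-gene shares of 41.5% and 42.2%. PPIL1, a prolyl isomerase of the active spliceosome, had means of 106 CPM in DMSO, 151 in CAR, 24.8 in JQ1 and 24.8 in Combination. The minor spliceosome list had 3 of 11 higher and 5 lower with JQ1.

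Of 17 genes of the exon junction complex and nonsense-mediated decay, 8 were called higher and 2 lower with CAR, 11 and 6 with JQ1, and 9 and 0 in Combination against JQ1, beside the all-gene shares of 27.3% and 30.1%, 41.5% and 42.2%, and 26.0% and 25.9%. EIF4A3, the anchor of the exon junction complex, had means of 139 CPM in DMSO, 148 in CAR, 219 in JQ1 and 325 in Combination. It rose by 0.66 ± 0.04 with JQ1 (1.21e-12) and by 1.23 ± 0.04 with both (1.64e-17). MAGOHB, a partner of the complex, went down with JQ1, from a mean of 12.8 CPM in DMSO to 2.66 (-2.27 ± 0.11, 3.36e-14), whereas its mean with CAR alone was 19.9. SMG5 and UPF1, which act in decay, rose with JQ1 (0.55 and 0.57).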

How the data were processed

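Counts per gene symbol were deposited by the authors for 12 libraries of MDA-MB-231 cells, 3 in each of 4 groups. Trimming with Trimmomatic, alignment with HISAT2, counting with HTSeq and the build hg38 are named in the submitters' processing notes, and a stranded kit for poly(A) RNA in the labels' protocols; which annotation and strand setting the counting used is not given in the sources used here. The deposited counts were tested with edgeR 4.0.16 (R 4.3.3, limma 3.58.1): TMM scaling, genes kept by filterByExpr (minimum count 10, minimum total 15), a robust quasi-likelihood fit over all 12 libraries, 6 contrasts, and Benjamini-Hochberg adjustment over the 12645 genes of each. The same script was tested on simulated data, with changed genes drawn from all tested genes and not from the members in particular. Among 1.2-fold changes 52.9% were called for CAR against DMSO and 16.2% for the interaction, and among 1.5-fold changes 87.9% and 72.7%. A gene that was not called may thus still have changed by a small amount. Total counts and their precision are given with the libraries above. The alternatives were DESeq2 1.42.0, 3 other scalings, no filter, the groups of a contrast alone, a replicate block, a correction for transcript length, the members without copies of other genes, and each library left out in turn. Tables were handled with Python 3.11.15 and pandas 2.3.3.

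The members and the gene lists were chosen with earlier results of these data known. Values in every library were given for the called members with the largest and smallest change per family and contrast with a mean of at least 5 CPM, for the 3 largest and 3 smallest interactions, and for 10 well-known members; others shown were chosen after their values were seen. Positions come from GENCODE v29 (all 70 members matched) and promoter sequences from RefSeq. No batch is named in the labels.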

Additional observations from a re-analysis of the deposited data

Results flagged for a closer look

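The interaction was called in 27 members, 39.7% of those tested, near the 38.3% of all tested genes. The count is thus not particular to the members. In each of them the CAR effect with JQ1 differed from that without it. It was lower with JQ1 present for HNRNPLL (-0.49), PRPF38A (-0.30), SNRPE (-0.29), HNRNPA1 (-0.27), SF3B3 (-0.26), SF3B6 (-0.26), SNRPA (-0.24), SRSF8 (-0.23), SRSF5 (-0.22), SF3B1 (-0.17), SF3A3 (-0.17), HNRNPU (-0.17), U2AF2 (-0.17) and HNRNPUL1 (-0.17), all as log2 differences. HNRNPLL, which rose with JQ1, fell when CAR was added to JQ1, whereas CAR alone gave 0.01 (adjusted p = 0.905).

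It was higher with JQ1 present for SRSF4 (0.49), PRPF40B (0.45), HNRNPUL2 (0.39), PRPF39 (0.32), SRSF11 (0.31), PRPF38B (0.29), PRPF3 (0.27), PRPF4B (0.24), SRSF2 (0.23), HNRNPH1 (0.23), HNRNPDL (0.23), HNRNPF (0.16) and HNRNPL (0.15). PRPF40B, the scarcest tested member per length, was not called (adjusted p 0.0618 to 0.122) without any 1 of DMSO replicate 1, CAR replicate 1 or 3, JQ1 replicate 1 or 2, or any Combination replicate.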

How the results depend on the processing

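Of 190 counts of members called higher or lower under an alternative, 185 stayed within 1.5 times the reported count. With total-count scaling 16 members fell with CAR (9 reported), 13 rose in Combination against DMSO (22), and in Combination against JQ1 18 rose and 17 fell (32 and 7). Without DMSO replicate 3, 25 members had a lower interaction (14 reported). With each library left out in turn that count ran from 11 to 25. The all-gene shares with a library left out are not given here. Higher and lower counts with 1 library left out ran from 31 to 39 and 7 to 11 for CAR, 15 to 17 and 37 to 38 for JQ1, 19 to 23 and 35 to 37 for Combination against DMSO, 26 to 29 and 5 to 8 for Combination against JQ1, and 15 to 15 and 36 to 38 for Combination against CAR.

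Of the values for single genes under an alternative, 1373 kept their direction and their side of the threshold, 70 lost a call, 21 gained one and 30 changed sign, the last all in SRSF1, SRSF2, SRSF7, SNRPD2, PRPF8 and U2AF1. With total-count scaling, CAR minus DMSO was -0.046 for SRSF1, -0.048 for SRSF7 and -0.023 for PRPF8, Combination minus DMSO was -0.096 for SNRPD2, and Combination minus JQ1 was -0.081 for PRPF8. Upper-quartile scaling gave -0.013 for SRSF1 and -0.015 for SRSF7 with CAR, and -0.0058 for PRPF8 in Combination minus JQ1. After the length correction, SRSF1 stood at -0.021 with CAR, SRSF7 at 0.090 in Combination minus DMSO and 0.079 in Combination minus CAR, SRSF2 at 0.057 in Combination minus CAR, and U2AF1 at 0.13 in JQ1 minus DMSO. That U2AF1 value was also 0.0047 with no filter, 0.0023 with the groups of the contrast alone and 0.012 with DESeq2.

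With 1 library left out, CAR minus DMSO ran from -0.0014 to 0.035 for SRSF1, from -0.0095 to 0.063 for SRSF7 and from -0.083 to 0.13 for PRPF8; JQ1 minus DMSO from -0.32 to 0.23 for U2AF1; Combination minus DMSO from -0.067 to 0.0059 for SRSF7; Combination minus JQ1 from -0.0086 to 0.016 for PRPF8; Combination minus CAR from -0.15 to 0.49 for U2AF1; and the interaction from -0.15 to 0.57 for U2AF1 and from -0.12 to 0.090 for PRPF8. The cause of these changes was not tested.

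Whether replicates of the same number were paired across groups is not given in the sources used here. Correlations of same-numbered deviations ran from -0.285 to 0.260 over 6155 genes. DMSO replicate 3 enters the deviations of all DMSO libraries, so the values with DMSO do not settle whether replicates were paired. Without DMSO they were 0.074, 0.040 and 0.029 for Combination with JQ1, and -0.142, -0.029 and -0.072 for Combination with CAR. Low correlations do not show that replicates were unpaired. With the replicate block 35 members rose and 9 fell with CAR, 16 and 38 with JQ1, 21 and 36 in Combination against DMSO, 30 and 6 in Combination against JQ1 and 15 and 38 in Combination against CAR, and U2AF1 in JQ1 minus DMSO was 0.033. The calls of SNRPB2 for JQ1 and of HNRNPA1 and PRPF38B for Combination against JQ1 were lost in it. Few counts limit PRPF40B and U2AF1L4. For U2AF1 and U2AF1L5 the low counts may also come from how reads that fit both were counted, which was not tested.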
